A study of Tigriopus californicus with 4 samples.

Results

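Protease inhibitors were represented by 29 of the 20278 contigs with deposited values in the San Diego (SD) population of the copepod *Tigriopus californicus*, and by 32 of 20931 contigs in the Santa Cruz (SC) population. The members were all contigs whose product name contained serpin, kazal, protease inhibitor, proteinase inhibitor, cystatin or alpha-2-macroglobulin. No name was dropped for holding a square bracket. They carried 17 different names in SD and 18 in SC. Each name is that of the best protein match of the contig, so several contigs with the same name may be pieces of a single transcript or separate genes, and the deposited values do not tell these apart. Only 2 contigs in each population carried the word serpin. The largest set, 20 contigs in SD and 19 in SC, was named as an inhibitor without serpin, Kazal, cystatin or alpha-2-macroglobulin in the name. The SC contig named alpha-2-macroglobulin receptor met the rule, although that name belongs to an endocytic receptor and not to an inhibitor.

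The study asked how gene expression changes after acute heat in populations that differ in thermal tolerance. Each population gave 1 control library, kept at 20°C (SD control, SC control), and 1 heat stress library, from animals held for 1 h at 35°C and then for 1 h at 20°C (SD heat stress, SC heat stress). Each library was made from a pool of 300 to 400 copepods of all developmental stages taken from laboratory stocks of the San Diego or the Santa Cruz strain. The control libraries were sequenced on a different lane from the heat stress libraries, which leaves lane confounded with treatment (these cannot be told apart), and with 1 library per condition no difference has a replicate check. In pools of whole animals, fewer animals or cells that express a gene and less RNA per cell cannot be told apart either.

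Protease inhibitors hold back enzymes that cut proteins. Serpins trap serine proteases by a change of shape that inactivates both partners, and in insects and crustaceans they restrain the protease cascades of clotting, melanization and Toll signalling. Kazal-type inhibitors block the active site of serine proteases with small disulfide-linked domains and are abundant in crustacean blood cells. Cystatins inhibit papain-family cysteine proteases such as cathepsin L. Alpha-2-macroglobulins enclose proteases of many classes in a molecular cage that closes when the protease cuts a bait region, and they belong to the same thioester protein family as complement C3 and CD109.

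The RPKM values (reads per kilobase of contig, scaled for library size) rested on 1947202 control and 5583127 heat stress reads for SD, and on 3256758 control and 4948622 heat stress reads for SC. Whole numbers of reads were recovered from the values, and 26 of the 29 SD members and 32 of the 32 SC members had a fit unlikely to arise by chance. All members were above 0 in both libraries of their population. The recovered control reads of a member ranged from 1 to 491 in SD, with a median of 39, and from 1 to 3564 in SC, with a median of 87. In the control library 9 SD members and 4 SC members had 10 or fewer reads, and their fold changes are correspondingly uncertain.

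The fold change is heat stress RPKM over control RPKM, with an exact (Clopper-Pearson) 95% interval from how the recovered reads divide between the 2 libraries. The interval covers counting error only. A contig was called higher or lower when it differed at least 2-fold and the interval excluded no change. Such a call compares 2 libraries, not 2 conditions. Over all contigs above 0 in both libraries, the median log2 fold change was -0.03 in SD and 0.40 in SC, and for SC a second set of values is therefore scaled to this median.

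In the SC libraries the called inhibitors differed in direction by name group. Of 4 contigs with an alpha-2-macroglobulin name, 3 were called higher after heat stress, 2 of them also when scaled to the median contig. The fourth had 1 and 7 reads. Lower calls were made for 2 of 5 Kazal-type contigs and 4 of 7 contigs named serine protease inhibitor-1l. The last of these groups was formed after the names and values had been seen. Of the 32 SC members, 3 were called higher and 7 lower. Over all SC contigs 21.2% were called higher and 6.68% lower, or 27.9% in either direction. The median log2 fold change of the SC members was -0.50, against 0.40 over all contigs. A fold change below 1 was measured for 18 of the 32 members, or 56.2%, against 36.1% of all contigs above 0 in both libraries.

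In SD the median inhibitor contig differed little between the libraries. Of the 29 members, 1 was called higher and 0 lower, where 7.77% of all SD contigs were called, 3.97% higher and 3.79% lower. The median log2 fold change of the members was 0.07, and 19 of the 29 members, or 65.5%, had a fold change above 1, against 46.7% of all SD contigs above 0 in both libraries. The SD count of called members is near the share called over all SD contigs. Few reads limit this count, since an uncalled SD member had a fold change of 2.96 (0.704 to 26.5) on 2 and 17 reads. In SC, lower calls outnumbered higher calls among the members, and higher calls outnumbered lower calls over all contigs. The balance over all SC contigs changed with mean RPKM. It was 186 higher and 252 lower at 100 RPKM or more, 1770 and 855 from 10 to 100, and 2488 and 291 under 10. For the members in these ranges it was 1 higher and 2 lower, 2 and 3, and 0 and 2.

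**Figure D1:**
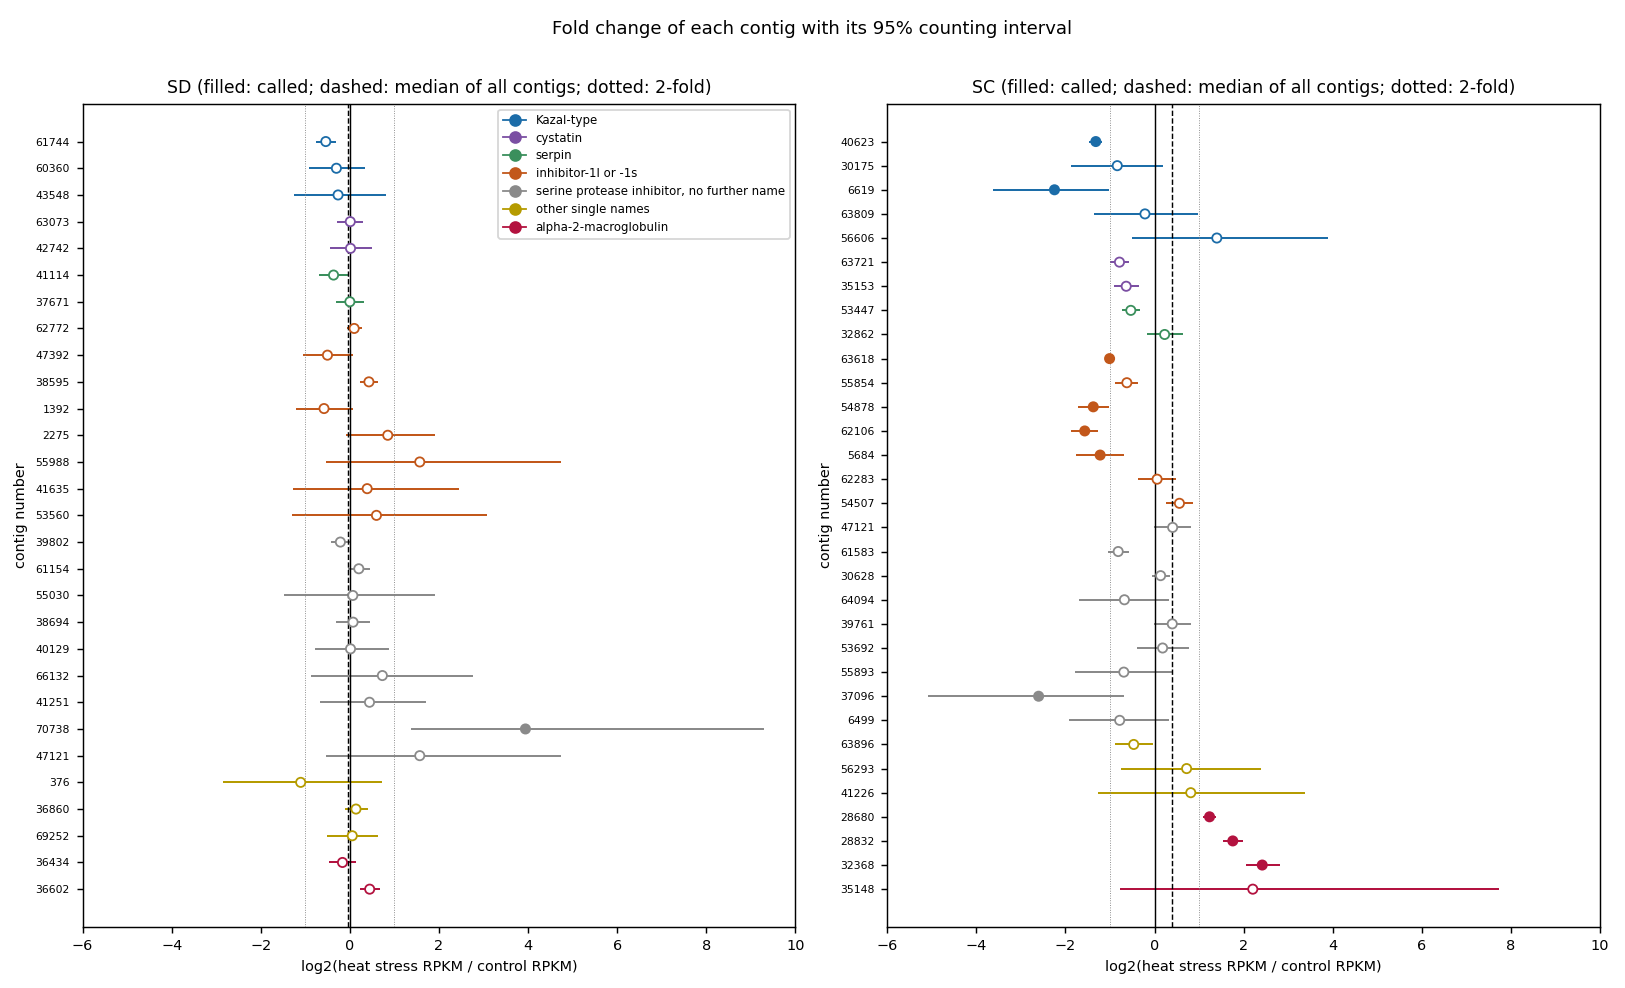
Log2 fold change (x axis, heat stress RPKM over control RPKM) of each protease inhibitor contig (y axis, contig number) in SD (left) and SC (right), coloured by name group, with 95% counting intervals as bars. Filled points are called contigs, 1 in SD and 10 in SC, the solid line marks no change, the dashed line the median of all contigs and the dotted lines 2-fold; the 3 filled alpha-2-macroglobulins in SC lie to the right and the 7 other filled SC points to the left.

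Relative to the median contig, 2 SC members were called higher and 15 lower, and the median log2 fold change of the members was -0.90. With that scaling 10.9% of all SC contigs were called higher and 14.9% lower, or 25.8% in either direction. Of the 10 members called without it, 9 were also called with it. In SD the scaling left 1 member called higher and 0 lower, where 4.17% of all SD contigs were called higher and 3.67% lower, or 7.84% in either direction.

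The study used Kal's *Z*-test on RPKM with Bonferroni correction and an adjusted *p* of up to 0.10. By this test 2 SD members were called, 1 higher and 1 lower, where 2.59% of all SD contigs were called, 1.35% higher and 1.24% lower. In SC it called 7 members, 3 higher and 4 lower, where 5.54% of all SC contigs were called, 3.05% higher and 2.49% lower, and 6 of the 7 were also called by the 2-fold rule. On recovered reads, Kal's test called 0 SD members higher and 1 lower, where 3.18% of all SD contigs were called, 1.4% higher and 1.78% lower. In SC it called 3 members higher and 10 lower, where 17.9% of all contigs were called, 10.9% higher and 7.03% lower.

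**Figure D2:**
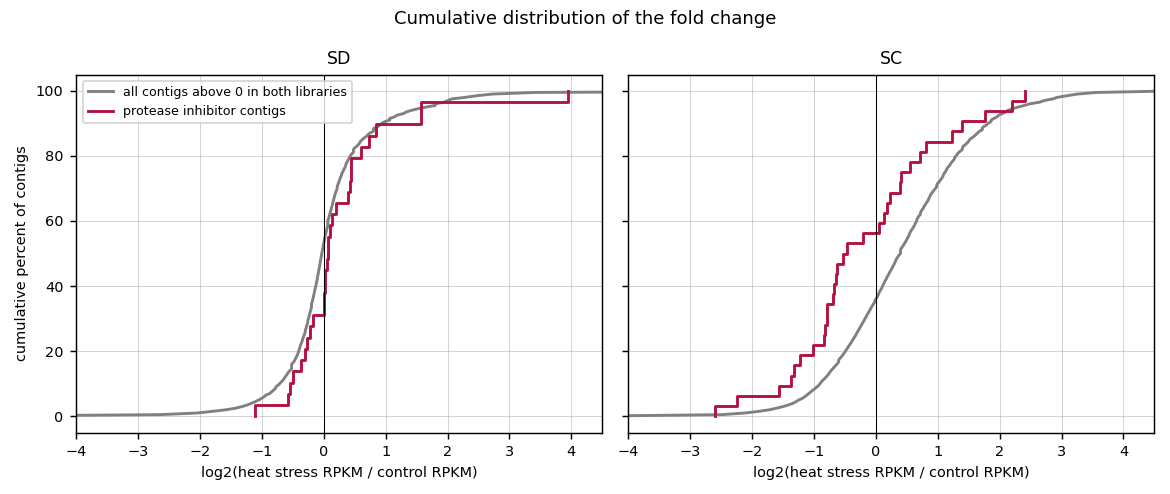
Cumulative percent of contigs (y axis) by log2 fold change (x axis) for all contigs above 0 in both libraries (grey) and for the protease inhibitor contigs (red) in SD (left) and SC (right). The SC members lie to the left of all contigs over most of the range, with medians of -0.50 and 0.40. The SD medians are 0.07 and -0.03. Below a log2 fold change of 0 lie 34.5% of the SD members and 53.3% of all SD contigs, and in SC 56.2% and 36.1%.

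Alpha-2-macroglobulin names were on 4 contigs in SC and 2 in SD. The contig named alpha-2-macroglobulin precursor splice variant 1 tam, SCN_Contig32368, had 10.3 RPKM in the control and 55.0 RPKM after heat stress. This was a fold change of 5.34 (4.19 to 6.88), on 75 and 608 reads, the highest of the called SC members. The contig named C3 and PZP-like alpha-2-macroglobulin domain containing 8, SCN_Contig28832, had 15.6 and 52.6 RPKM, a fold change of 3.37 (2.95 to 3.87). SCN_Contig28680, alpha-2-macroglobulin-like protein 1, had 63.0 and 148 RPKM, a fold change of 2.35 (2.17 to 2.55) on 763 and 2725 reads. All 3 were called higher. They were the only SC members called higher by the 2-fold rule, and Kal's test on RPKM called the same 3. Relative to the median contig, the fold change of SCN_Contig28680 was 1.79 (1.65 to 1.94), below the 2-fold threshold, and those of the others were 2.56 and 4.05.

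The receptor contig, SCN_Contig35148, had 1.32 and 6.07 RPKM on 1 and 7 reads, and its interval of 0.592 to 208 excluded neither a fall nor a rise. In SD, alpha-2-macroglobulin-like protein 1 (SD_Contig36434) had 51.9 RPKM in the control and 46.3 RPKM after heat stress, a fold change of 0.891 (0.734 to 1.09). The SD contig of the C3 and PZP-like name, SD_Contig36602, had 27.4 and 37.3 RPKM, a fold change of 1.36 (1.19 to 1.56) that was not called. Its recovered length, 5081 bp, was the same as that of the SC contig of this name, although the SD fit alone was not distinct from chance. The SD and SC contigs named alpha-2-macroglobulin-like protein 1 had recovered lengths of 1444 bp and 3717 bp, and whether they cover the same stretch of a transcript was not tested.

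Kazal-type names were on 3 contigs in SD and 5 in SC. The contig named kazal-type serine protease inhibitor was among the 3 most abundant members of both populations. In SD, SD_Contig61744 had 398 RPKM in the control and 273 RPKM after heat stress, a fold change of 0.687 (0.597 to 0.792) on 299 and 589 reads. It did not reach 2-fold, and it was the SD member that Kal's test on RPKM called lower. In SC, SCN_Contig40623 had 985 and 394 RPKM, a fold change of 0.401 (0.367 to 0.437) on 1398 and 851 reads, and was called lower. The 95% intervals of the SD and SC fold changes did not overlap.

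The contig named kazal-type serine protease inhibitor-like protein had 42.0 and 34.9 RPKM in SD (SD_Contig43548), a fold change of 0.832 (0.423 to 1.73). In SC (SCN_Contig30175) it had 90.3 and 50.5 RPKM, a fold change of 0.559 (0.275 to 1.12). Neither was called, and both intervals, on 13 control reads in SD and 20 in SC, included no change. Relative to the median contig, SCN_Contig30175 was called lower, at a fold change of 0.425 (0.209 to 0.854). The name kazal-type serine proteinase inhibitor 2 was on 2 SC contigs. SCN_Contig6619 had 10.8 and 2.27 RPKM and was called lower, at a fold change of 0.211 (0.0821 to 0.482) on 25 and 8 reads, a call that Kal's test made neither on RPKM nor on recovered reads. SCN_Contig56606 had 1.48 and 3.89 RPKM on 3 and 12 reads, with an interval of 0.710 to 14.5. The remaining Kazal-type contigs, SD_Contig60360 and SCN_Contig63809, had fold changes of 0.810 (0.536 to 1.25) and 0.861 (0.394 to 1.93). A lower value after heat stress was measured for 3 of the 3 SD contigs, where 53.3% of all SD contigs had one, and for 4 of the 5 SC contigs, where 36.1% of all SC contigs had one. The interval excluded no change for 1 of these in SD and 2 in SC. This count holds only names with the word Kazal. The SD contig named dipetalogastin and the SD and SC contigs named protease inhibitor epi11, described with the single names, are not in it. Whether epi11 belongs to the Kazal type was not tested. The fold changes of the dipetalogastin and epi11 contigs were above 1, with intervals that included no change. The share of lower values therefore depends on the names taken, although lower values would stay in the majority with these contigs added.

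Cystatins numbered 2 in each population and were among the more abundant members. The contigs named cystatin-b, after the cytosolic inhibitor of cathepsins, had 65.2 RPKM in the SD control library and 65.8 after heat stress (SD_Contig42742), a fold change of 1.01 (0.743 to 1.39). In SC the contig of this name (SCN_Contig35153) had 158 and 102 RPKM, a fold change of 0.643 (0.538 to 0.768). The cystatin-like protein of SD, SD_Contig63073, had 150.2 and 151 RPKM, a fold change of 1.01 (0.836 to 1.22). The cystatin precursor of SC, SCN_Contig63721, had 299 and 173 RPKM, a fold change of 0.579 (0.504 to 0.665). Both SC intervals lay below 1 without reaching 2-fold, and both SC cystatins were called lower relative to the median contig. The SD cystatins had nearly equal values in the control and heat stress libraries.

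The contigs with serpin in the name showed small differences. The contig named serpin-4 had 39.2 RPKM in the SD control library and 30.4 after heat stress (SD_Contig41114), a fold change of 0.775 (0.633 to 0.954). In SC (SCN_Contig53447) it had 81.4 and 56.3 RPKM, a fold change of 0.691 (0.612 to 0.780). Both intervals excluded no change, both values were lower after heat stress, and neither was called. The contig named serpin b6-like, after a vertebrate intracellular serpin, had 37.9 and 37.8 RPKM in SD (SD_Contig37671), a fold change of 0.999 (0.814 to 1.23). In SC (SCN_Contig32862) it had 19.6 and 22.9 RPKM, a fold change of 1.17 (0.903 to 1.52).

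The names serine protease inhibitor-1l and -1s were on 8 SD contigs and 7 SC contigs, and this grouping was made after the names and values had been seen. It held the member with the highest RPKM in each population. In SC, SCN_Contig63618 had 1383 RPKM in the control and 687 RPKM after heat stress, a fold change of 0.496 (0.472 to 0.522) on 3564 and 2688 reads. Its interval reached above 0.5, so the call rests on a value close to the threshold. Of the other contigs with this name, 3 were called lower. SCN_Contig62106 had 52.5 and 17.7 RPKM, a fold change of 0.337 (0.278 to 0.408). SCN_Contig54878 had 107 and 41.2 RPKM, a fold change of 0.385 (0.307 to 0.482). SCN_Contig5684 had 45.0 and 19.3 RPKM, a fold change of 0.429 with an interval that ended at 0.607. Kal's test called SCN_Contig62106 and SCN_Contig5684 on recovered reads and not on RPKM.

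Not all SC contigs of this name were lower. SCN_Contig55854 had 545 and 354 RPKM, a fold change of 0.649 (0.551 to 0.765), which Kal's test on RPKM called lower and the 2-fold rule did not. SCN_Contig54507 had 34.5 and 50.8 RPKM, a fold change of 1.47 (1.22 to 1.78), and SCN_Contig62283 had 40.7 and 42.3 RPKM, a fold change of 1.04 (0.790 to 1.37). The median log2 fold change of the 7 SC contigs was -1.01, and 5 of the 7 were below 1 with their intervals. Of these 5, 4 were called by the 2-fold rule.

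In SD the contigs of this name were not called, and 6 of the 8 had a fold change above 1. The most abundant SD member, SD_Contig62772, had 476 RPKM in the control and 509 RPKM after heat stress, a fold change of 1.07 (0.965 to 1.19) on 491 and 1505 reads. SD_Contig38595 had 50.9 and 68.4 RPKM, a fold change of 1.34 (1.18 to 1.54), and was the only contig of the 8 with an interval that excluded no change. The other 6 ranged from 1.82 to 93.0 RPKM in the control and from 2.74 to 65.6 RPKM after heat stress. Sequences would be needed to say which SD and SC contigs of this name correspond, so they were not matched.

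**Figure D3:**
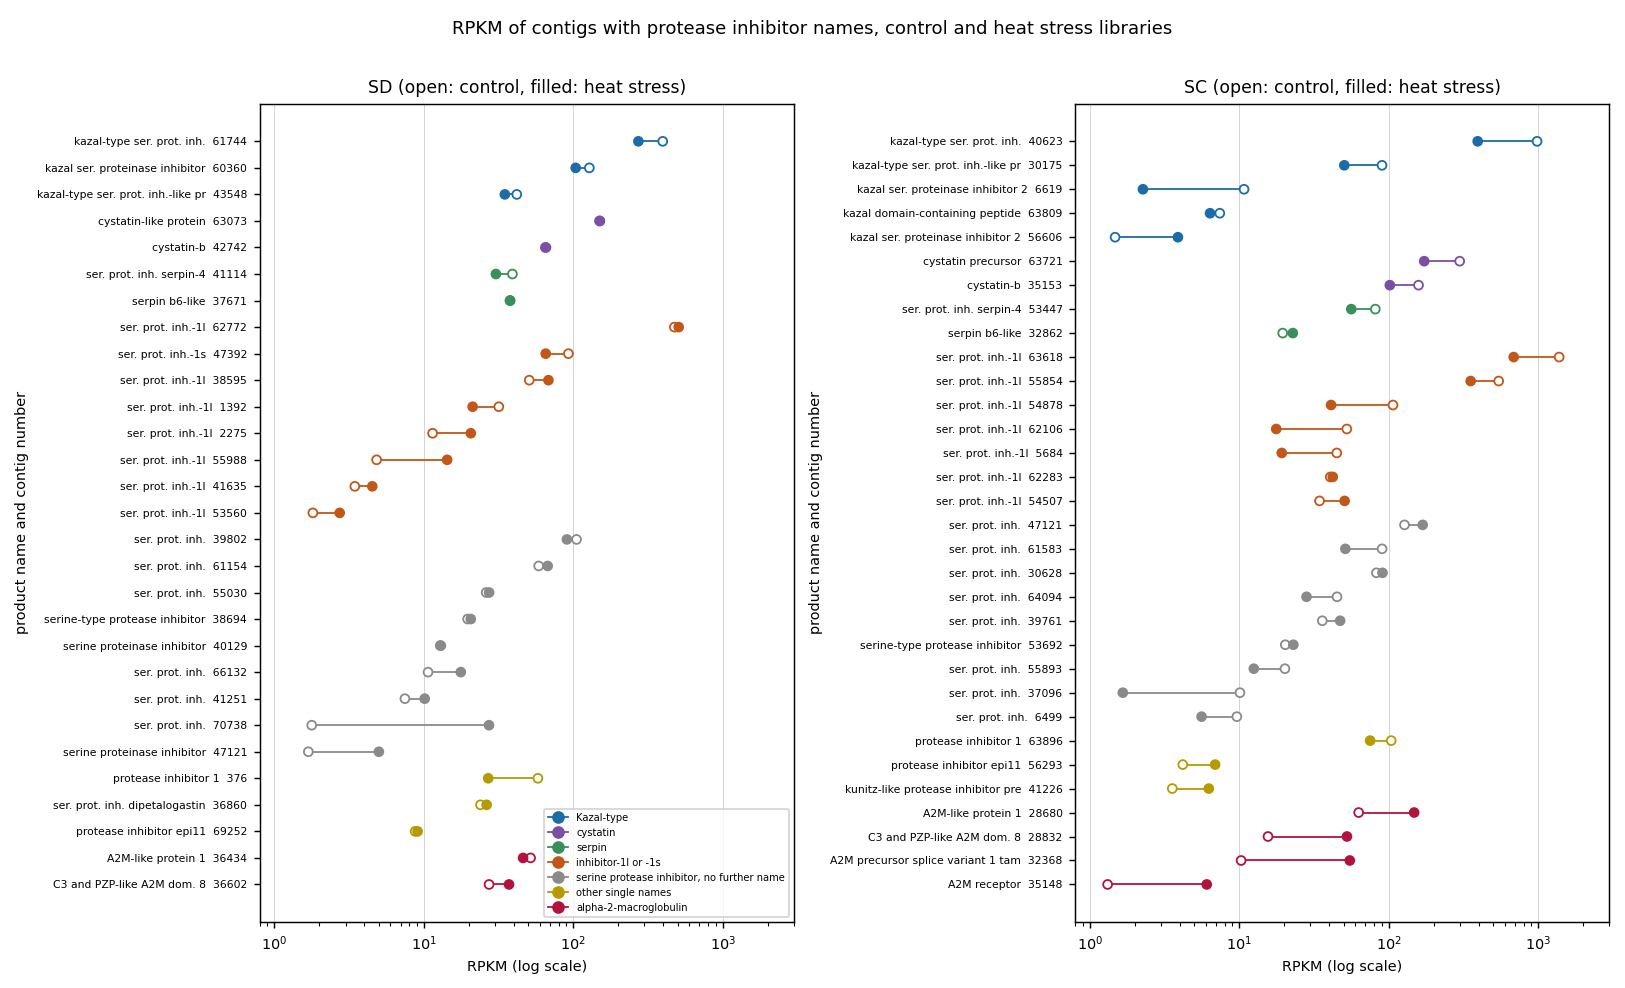
RPKM on a log axis (x axis) of each protease inhibitor contig (y axis, shortened product name and contig number) in SD (left) and SC (right), with open points for the control, filled points for the heat stress library and colours for the name groups. The points of most SD contigs lie close together, while in SC the contigs of the highest RPKM, at 985 and 1383 in the control, have their filled points to the left and the alpha-2-macroglobulins theirs to the right.

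Contigs named only serine protease inhibitor, serine proteinase inhibitor or serine-type protease inhibitor numbered 9 in each population. The SD member that was called higher was one of them. SD_Contig70738 had 1.78 RPKM in the control and 27.4 after heat stress, a fold change of 15.3 (2.61 to 620) on 1 control read and 44 heat stress reads. Kal's test on RPKM called it too, and the same test on recovered reads did not. In SC, SCN_Contig37096 had 10.1 and 1.67 RPKM and was called lower, at a fold change of 0.165 (0.0298 to 0.610) on 12 and 3 reads. Kal's test called it neither on RPKM nor on recovered reads. The single contig named serine-type protease inhibitor in each population had 19.7 and 20.7 RPKM in SD (SD_Contig38694), a fold change of 1.05 (0.821 to 1.35), and 20.3 and 23.0 RPKM in SC (SCN_Contig53692), a fold change of 1.13 (0.768 to 1.69). The other 7 SD contigs had fold changes from 0.862 to 2.96, and the other 7 SC contigs from 0.568 to 1.32. The SC contig at the lower end, SCN_Contig61583, went from 90.4 to 51.3 RPKM on 407 and 351 reads, with an interval of 0.491 to 0.656.

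The rest carried names found on few contigs. Protease inhibitor 1 had 58.1 and 27.0 RPKM in SD (SD_Contig376), on 6 and 8 reads of a contig with a recovered length of 53 bp, and the interval of its fold change of 0.465 ran from 0.141 to 1.63. In SC (SCN_Contig63896) it had 104 and 75.2 RPKM, a fold change of 0.723 (0.548 to 0.954). The name protease inhibitor epi11 had 8.78 and 9.11 RPKM in SD (SD_Contig69252), a fold change of 1.04 (0.716 to 1.53), and 4.20 and 6.90 RPKM in SC (SCN_Contig56293), a fold change of 1.65 (0.603 to 5.18). The SD contig named for dipetalogastin, a Kazal-type thrombin inhibitor of a blood-feeding bug, had 26.4 RPKM after heat stress (SD_Contig36860), and the interval of its fold change ran from 0.935 to 1.30. The SC contig with a Kunitz-like name, SCN_Contig41226, had 3.57 and 6.27 RPKM, on 3 and 8 reads. None of these 6 contigs was called.

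Summed over the members, the RPKM was 1949 in the SD control and 1829 after heat stress, or 0.230% and 0.215% of the RPKM of all contigs. In SC the sum was 4506 and 2803, or 0.400% and 0.279%. The 3 members with the highest control RPKM held 64.7% of the SC control sum. Without them the ratio of the SC sums was 0.859, against 0.622 with all members, so most of the difference between the SC sums lay in SCN_Contig63618, SCN_Contig40623 and SCN_Contig55854. In SD the ratio was 0.939 with all members and 0.969 without the 3 of the highest control RPKM.

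In SC the fold change of all contigs moved with their level, so the members were also set beside contigs of the same range of mean RPKM over both libraries. Among contigs with a mean of at least 100 RPKM, the median log2 fold change was -0.29 for all 1502 SC contigs and -0.64 for the 7 members. From 10 to 100 RPKM it was 0.16 for all contigs and -0.47 for 17 members, and under 10 RPKM 0.86 and 0.25, with 8 members. The part of this level dependence in the values of single members was not tested. In SD the medians over all contigs were -0.03, -0.07 and 0.12 in these ranges, and those of the 4, 19 and 6 members were -0.15, 0.01 and 0.52.

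Names found on exactly 1 contig in each population numbered 10, and they allow the populations to be set side by side. The assemblies and the RPKM values were made separately for each population, so no test was run across them, and the pairing rests on the product name alone. The control level was higher in SC for 7 of the 10 names, and over the 10 names the log2 control levels of the populations were correlated at Pearson's r = 0.947 and Spearman's rho = 0.927. For the heat stress libraries the values were 0.895 and 0.697. These describe 10 names in 2 libraries each and share the assembly and mapping method.

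For 3 of the 10 names the intervals of the SD and SC fold changes did not overlap, namely kazal-type serine protease inhibitor, alpha-2-macroglobulin-like protein 1 and the C3 and PZP-like name. The difference between SD and SC was not tested. Relative to the median contig of each population, intervals did not overlap for 5 names, with cystatin-b and serpin-4 added. No name had a fold change with an interval above 1 in one population and below 1 in the other. How often SD and SC intervals lie apart over all names found once in each population was not computed. The counts of 3 and 5 names are therefore not shown to be particular to inhibitors. Over all contigs, 27.9% were called in SC and 7.77% in SD.

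**Figure D4:**
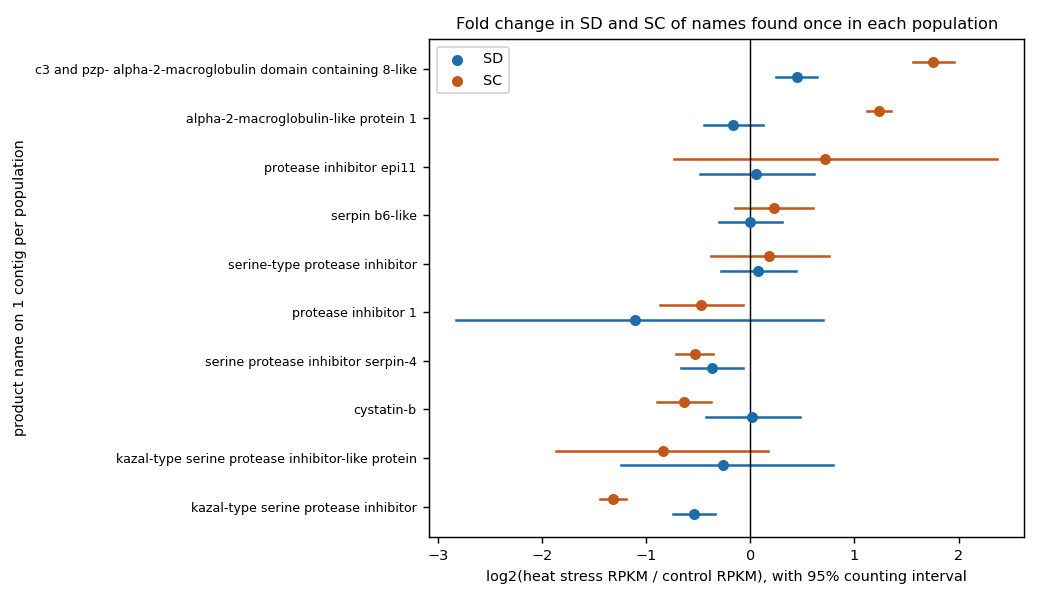
Log2 fold change with its 95% counting interval (x axis) in SD (blue) and SC (orange) for the 10 product names found on 1 contig per population (y axis), ordered by the SC value. The intervals lie apart for the 2 alpha-2-macroglobulin names at the top, where SC is higher, and for the Kazal-type name at the bottom, where SC is lower, at 0.401 against 0.687 in SD on the linear scale.

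Classes of protease that these inhibitors act on were searched by words in the product names. Serine protease names, the class on which serpins and Kazal-type inhibitors act, were on 85 contigs in SD, with 4 called higher and 3 lower. In SC they were on 83, with 5 called higher and 3 lower. The search also caught names such as seprase, htra2, subtilisin-like, masquerade-like, serine proteinase-like 2b and serine proteinase clade member 4. Whether each is an active protease or a target was not tested. The median log2 fold change of the list was 0.06 in SD and 0.02 in SC. Kal's test on RPKM called 1 of the 85 SD contigs higher and 1 lower, where it called 2.59% of all SD contigs. Of the 83 SC contigs it called 2 higher and 0 lower, where it called 5.54% of all SC contigs. Relative to the median contig, 1 of the 83 SC serine proteases was called higher and 12 lower, with a median of -0.38. The shares called over all contigs apply to the following lists too. Over all SC contigs they were 21.2% higher and 6.68% lower, and with scaling to the median 10.9% higher and 14.9% lower. Over all SD contigs they were 3.97% higher and 3.79% lower, and the SD serine protease counts are near these shares. The highest fold change among the called SD serine proteases, 9.40 (6.21 to 14.9), was that of SD_Contig37091, with 12.4 RPKM in the control and 117 RPKM after heat stress. The list searched for papain-family cysteine proteases, the targets of cystatins, had 0 of 19 contigs called in SD and 2 of 23 called higher in SC, with medians of -0.03 and -0.05. With scaling to the median, 1 SC contig of this list was called higher and 3 lower. The list was drawn by words in the names and also caught proteases of other families, named atg4b and c14, and a cathepsin L-associated protein, SCN_Contig31891, which was 1 of the 2 SC contigs called higher. Kal's test on RPKM called 1 of the 23 lower, the cathepsin L contig SCN_Contig55662, which had 251 and 132 RPKM, a fold change of 0.525 (0.455 to 0.605). Metalloproteases were called higher in 1 of 34 contigs in SD and 6 of 31 in SC, where 1 was called lower. Scaled to the median, the SC counts were 4 higher and 3 lower, and the SC count of higher calls is near the share over all contigs.

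Further names tied to inhibitors, outside the name rule, were papilins, Kunitz-domain proteins and inter-alpha-trypsin inhibitor heavy chains, on 6 SD and 8 SC contigs. They were found by words in the names, and whether each protein itself inhibits a protease was not tested. In SC 4 of the 8 were called higher and 0 lower, where 21.2% of all SC contigs were called higher. After scaling to the median 2 of the 8 were called higher, where 10.9% of all SC contigs were. In SD 0 of the 6 were called higher and 1 lower, where 3.97% and 3.79% of all SD contigs were. Papilin, an extracellular matrix protein with Kunitz domains, was on 3 of the 4 SC contigs called higher. SCN_Contig29843 had 3.31 and 11.1 RPKM, a fold change of 3.37 (2.20 to 5.34), and SCN_Contig30505 had 5.95 and 14.0 RPKM, a fold change of 2.36 (1.67 to 3.39). The third, SCN_Contig37897, was listed at 0 in the SC control and at 5.13 RPKM after heat stress. All 3 were at low RPKM, where higher calls were more frequent in SC. Of all 8571 SC contigs with a mean under 10 RPKM, 2488 were called higher, and 1368 after scaling to the median. The part of this level dependence in the papilin calls was not tested. In SD 1 of 4 papilin contigs, SD_Contig41842, was called lower, at a fold change of 0.459 (0.243 to 0.881).

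The list of thioester proteins outside the rule also caught thioesterases, which are unrelated enzymes. With those left out after the names had been seen, it held 3 CD109 contigs in SD and 5 CD109 contigs and a macroglobulin complement contig in SC. The 5 SC contigs named CD109 had fold changes above 1, as did 63.9% of all SC contigs above 0 in both libraries. Their mean RPKM lay under 10, a range in which the median log2 fold change of all SC contigs was 0.86. Among the 5, SCN_Contig37546 was at the median of all contigs, with a log2 fold change of 0.40, and 1, SCN_Contig33400, was called higher, at 0.788 and 7.78 RPKM on 2 and 30 reads, which gave a fold change of 9.87 (2.50 to 85.2). In SD the CD109 contigs had fold changes of 0.444, 0.907 and 3.14, and none was called, where 7.77% of all SD contigs were.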

How the data were processed

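The authors mapped the reads of each library to the assembly of its own population with CLC Genomics Workbench, named contigs by BLASTX and deposited 1 RPKM value per contig, without read counts. The genome annotation supplied for the species was not used here, since the files do not pair contigs with its genes. Members, lists and tests were chosen with earlier results of these data known.

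Library totals were searched between 1000000 and 8000000 reads as those that make RPKM values whole reads, and among simple multiples the one nearest the mapped reads stated by the study was taken. For each contig the smallest length from 36 bp that gave whole reads in both libraries was used, so that reads are lower bounds. Recovery and calls were tested on simulated data. The planned call rule (at least 2-fold, exact 95% interval excluding no change) and the study's Kal's *Z*-test were run over all contigs of a population in Python 3.11.15 with SciPy 1.17.1. No filter or pseudocount was applied. PCR duplicates are unknown, so intervals cover counting error only.

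Named were members called by either rule, the 3 of the highest RPKM in each library and names on 1 contig per population. Others were named after their values had been seen, to complete their family.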

Additional observations from a re-analysis of the deposited data

How the results depend on the processing

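No paired analysis was possible because each population has 1 library per condition and the labels give no replicate numbers. With Kal's *Z*-test on RPKM, 2 SD members were called, 1 of them lower, and 4 SC members were called lower. With Kal's test on recovered reads, 0 SD members were called higher and 1 lower, and in SC 3 higher and 10 lower. With a threshold of 1.5-fold, 11 SC members were called lower. The share of all SC contigs called at this threshold was not computed, so the count has no background beside it. With scaling by the median ratio, 17 SC members were called, 15 of them lower, and the SC median was -0.90. This follows from the construction, since the scaling lowers every SC value by 0.40 on the log2 scale. The counts and medians stayed close to the reported ones with more than 10 reads in at least 1 library, with at least 1 RPKM in both libraries and with 1 RPKM added. No named contig that was called changed direction under these alternatives. Depth limits contigs with 10 or fewer control reads most, and the call of SD_Contig70738 rests on 1 control read.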
